A study of Gallus gallus with 32 samples.

Results

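The genes described here are the translation factors and aminoacyl-tRNA synthetases on a chicken cDNA array. They were chosen by symbol in the platform's probe table, as genes named for the eukaryotic initiation factors (EIF1 to EIF6), the elongation factors (EEF1 and EEF2), the release factor ETF1 or a tRNA synthetase, with a probe that gave a value on at least 24 of the 32 arrays. The table held 129 such probes for 63 genes, of which 113 probes for 61 genes met the limit on arrays, and 111 probes for 59 genes could be tested, out of 14688 probes and 5738 named genes tested in all. The 59 genes were 35 initiation factors and their regulators, 6 genes named for elongation factors, 1 release factor and 17 synthetases. The 6 include EEF1E1, a protein of the multi-synthetase complex, and EEF2KMT, a methyltransferase. The symbol pattern did not take the synthetase genes EPRS and FARSB, which are counted with the other translation genes below.

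RNA came from single anterior pituitary glands of fat-line and lean-line chickens, lines that had been selected in opposite directions on the weight of abdominal fat over 7 generations and were raised under a standard broiler protocol. Birds of both lines were 1, 3, 5 or 7 weeks old, which made 8 groups of line and age with 4 arrays each. Each RNA was amplified to antisense RNA, labelled with Cy3 and hybridised with a Cy5 pool of all 32 RNAs, so every value is the log2 ratio of a sample over that pool. The ratio of one probe is not comparable with that of another as a level, only its differences between groups are. The lines are a model of body fat made by selection, and the sample titles name no allele that separates the groups.

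The week 7 replicate 2 files of both lines held 1 scan. Spot area and quality score were identical for 54.6% of their spots, while no other 2 arrays shared more than 0.848%. Both were left out, which left 30 arrays, with 3 per line at week 7. Between 14008 and 16134 of the 19200 spots of an array were usable, and Cy3 signal over background had medians of 3.68 to 9.02. Of the 7 listed pituitary hormone genes 6 were measured, with Cy3 signals above 10 and up to 67.6 times background, and none passed from week 1 to week 7 or between the lines. Of 107 member probes valued on all 6 week 7 arrays, lean week 7 replicate 3 held the highest or lowest value in 64 (59.8%) and fat week 7 replicate 4 in 55 (51.4%), against 60.7% and 52.0% of all probes. With loess fitted per grid block of the slide these were 68 and 21 members, and fat week 7 replicate 1 held 52. In bulk tissue, fewer cells of a type and less RNA per cell cannot be told apart.

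Initiation of translation starts when eIF2 brings the initiator tRNA to the small ribosomal subunit, which eIF3 holds and the eIF4 proteins lead to the capped end of an mRNA. eIF2 must exchange GDP for GTP on eIF2B to be used again, and kinases that phosphorylate its alpha subunit slow that exchange and so lower most protein synthesis under stress. eEF1A then delivers each aminoacyl-tRNA, eEF1B recharges eEF1A, eEF2 moves the ribosome along, and the synthetases load each tRNA with its amino acid. Pituitary endocrine cells use this machinery to make and secrete large amounts of a few peptide hormones.

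Most translation genes showed no change from week 1 to week 7 (averaged over the lines) that passed the test, and among those that did the initiation factor EIF2S1 rose most, with EIF2B2 and EIF4A2 falling most. Of the 111 member probes 16 passed, 11 higher and 5 lower, in 14 genes. That is 14.4% of the members, and 16% of all tested probes passed in the same comparison. By direction, 8.93% of all tested probes passed as higher and 7.04% as lower. The median change of the members was -0.00 on the log2 scale, with a range of -0.68 to 0.84, and the median of all tested probes was -0.02. These calls come from limma's moderated test, adjusted over all 14688 probes at a threshold of 0.05, on ratios normalised by 1 loess curve per array.

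Many of these calls depended on how the array was normalised. With a loess curve for each grid block of the slide, 8 member probes passed, 6 higher and 2 lower, and 5 of them were among the 16. The background then was 8.24% of all tested probes. The 5 probes that passed both ways belong to EIF2S1, EIF2B2, EIF3J and EEF1A2. All 16 probes kept their sign.

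**Figure D1:**
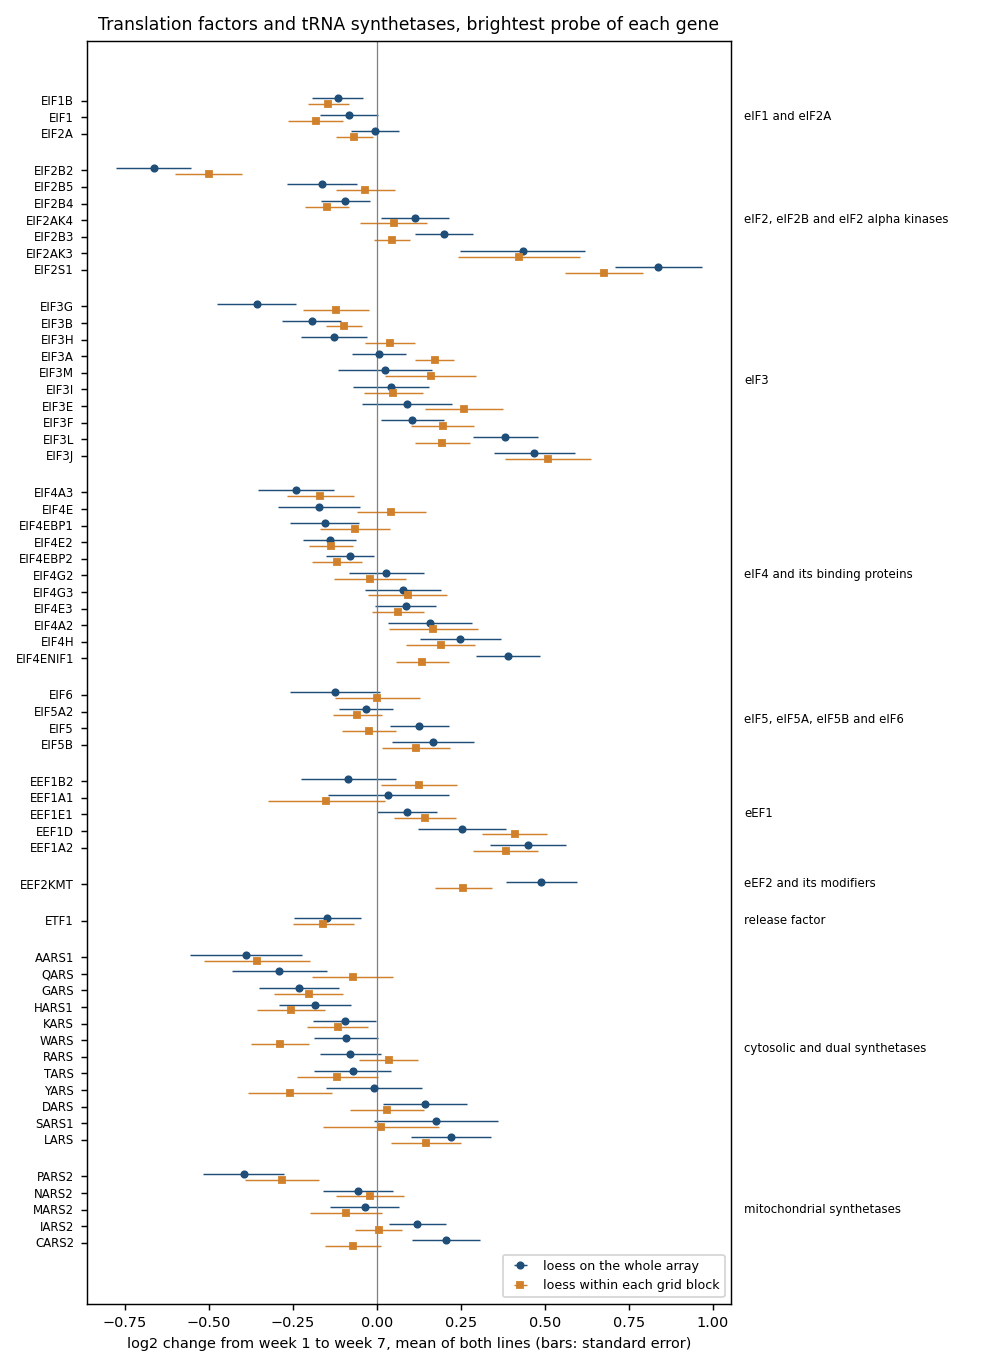
Log2 change from week 1 to week 7 (x axis, mean of both lines, with standard error) for the brightest probe of each of the 59 genes, ordered by role. Circles show loess on the whole array and squares loess within each grid block. EIF2S1 at 0.84 and EIF2B2 at -0.66 lie farthest from 0.

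The largest rise was that of EIF2S1, the alpha subunit of eIF2 and the target of the eIF2 kinases. Its brightest probe had a log2 ratio to the pool of -0.97 to -0.22 (median -0.36) over the 8 week 1 arrays. It read -0.46 to 0.05 (median -0.16) at week 3 and -0.45 to 0.08 (median -0.13) at week 5. At week 7 it read 0.37, 0.76 and 0.22 in lean birds and 0.07, 0.21 and 0.86 in fat birds. Every week 7 array lay above every week 1 array, in both lines. The rise was 0.84 (SE 0.13, 1.79-fold, adjusted p = 0.000103), and 0.68 (SE 0.12, adjusted p = 0.000368) with loess per block. The step from week 5 to week 7 was 0.55 and the earlier steps 0.24 and 0.05, none of which passed on its own. A second EIF2S1 probe did not follow, with a change of -0.04 (SE 0.08, adjusted p = 0.73). Over the 30 arrays both probes correlated at 0.01, or 0.37 with loess per block.

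EIF2B2, the beta subunit of the exchange factor eIF2B, had the largest fall that passed the test. Its tested probe read 0.02 to 0.49 in lean and -0.28 to 0.22 in fat birds at week 1. At week 7 it read -0.63, -1.10 and -0.44 in lean and -0.45, -0.29 and -0.52 in fat birds, so no week 7 array reached the lowest week 1 array. With loess per block the ages overlapped, with a lowest week 1 value of -0.18 and a highest week 7 value of -0.06. The probe fell by 0.66 (SE 0.11, adjusted p = 0.000295), or by 0.50 (SE 0.10, adjusted p = 0.0016) with loess per block. The fall was spread over a step of -0.35 from week 1 to week 3 and -0.31 from week 5 to week 7, neither of which passed. The other eIF2B subunits measured did not pass: EIF2B4 changed by -0.09, the 2 probes of EIF2B3 by 0.20 and -0.20, and those of EIF2B5 by -0.16 and -0.24.

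The eIF2 kinases did not pass either. EIF2AK3, the kinase PERK that senses unfolded protein in the endoplasmic reticulum, changed by 0.43 (SE 0.19, adjusted p = 0.107). EIF2AK4, the kinase GCN2 that senses uncharged tRNA, changed by 0.11 and -0.28 on its 2 probes. Both values of EIF2AK4 lay within 2 standard errors of 0. Of ATF4 and its targets, which are induced when eIF2 alpha is phosphorylated, 7 of 17 listed genes were measured. VLDLR, a lipoprotein receptor, rose by 0.76 (adjusted p = 0.002), PSPH, which makes serine, fell by 0.31 (adjusted p = 0.0305), and ATF4 itself changed by -0.03.

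**Figure D2:**
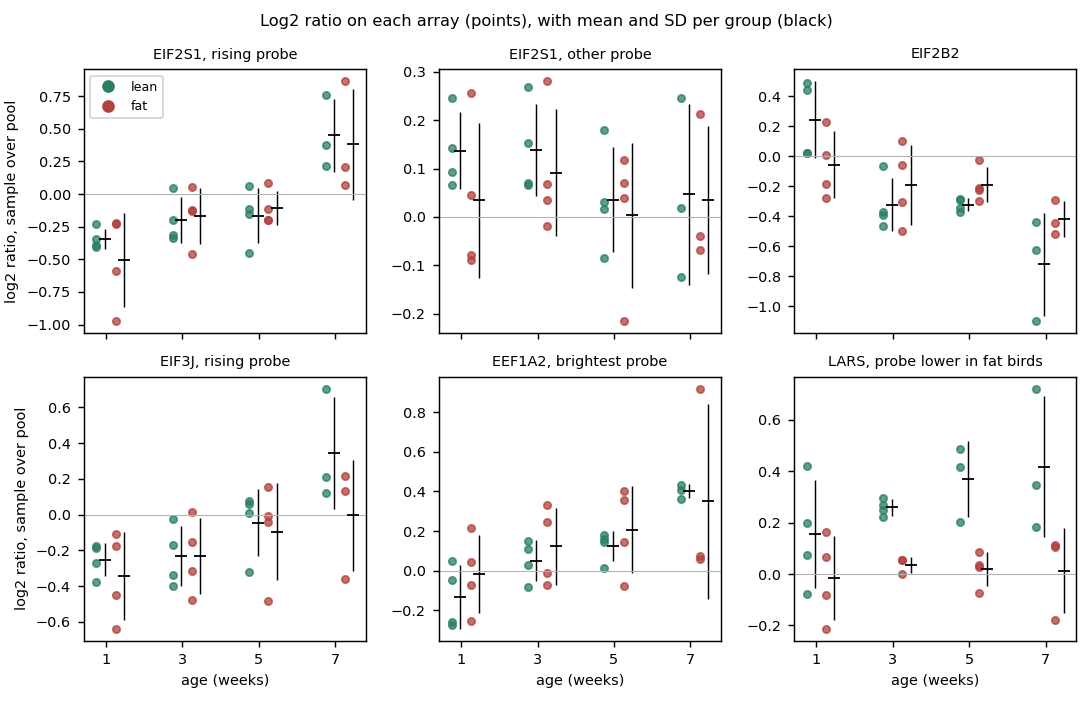
Log2 ratio of sample over pool on each array (points, lean and fat) by age in weeks for 6 probes, with the mean and SD of each group in black. The rising EIF2S1 probe lies above 0 on all 6 week 7 arrays and at -0.22 or lower on all 8 week 1 arrays, while the other EIF2S1 probe stays between -0.22 and 0.28 throughout.

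In eIF3, the scaffold of the small subunit, 3 of 18 probes rose and 1 fell. EIF3J, a loosely held subunit, read -0.64 to -0.11 (median -0.23) at week 1 and -0.36 to 0.71 (median 0.17) at week 7. The groups overlap only through fat week 7 replicate 1, at -0.36. Its brightest probe rose by 0.47 (SE 0.12, 1.38-fold, adjusted p = 0.0113), and by 0.51 (adjusted p = 0.0132) with loess per block. The other EIF3J probe changed by 0.05, or -0.20 per block, and correlated with the first at -0.37 over the arrays, or -0.74 per block. Without lean week 7 replicate 3 the rise was no longer called.

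EIF3A, the largest eIF3 subunit, rose by 0.54 on 1 of its probes (adjusted p = 0.0162) and changed by 0.01 on its brightest. EIF3L rose by 0.38 on the brightest of 4 probes (adjusted p = 0.0101), with the other 3 at -0.19 to 0.28. EIF3G, an RNA-binding subunit, fell by 0.36 (adjusted p = 0.0397), and its other probe changed by 0.09. None of these 3 passed with loess per block, where their adjusted p values were 0.0907, 0.124 and 0.412. The 5 subunits EIF3B, EIF3E, EIF3F, EIF3H and EIF3M and both probes of EIF3I ranged from -0.19 to 0.11 and did not pass.

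Among the cap-binding and scanning factors of the eIF4 group, 2 of 18 probes rose and 1 fell, and none passed with loess per block. EIF4G2, an eIF4G relative that does not bind the cap protein eIF4E, rose by 0.51 on 1 of 3 probes (SE 0.13, adjusted p = 0.0118, 0.0569 per block), with the others at -0.11 and 0.03. EIF4ENIF1, which carries eIF4E into the nucleus, rose by 0.39 (adjusted p = 0.00774, 0.249 per block) on its brightest probe and changed by 0.16 on the other. EIF4A2, an RNA helicase of the cap complex, fell by 0.66 on 1 of 4 probes (SE 0.16, adjusted p = 0.00662, 0.111 per block), while the other 3 ranged from -0.11 to 0.16.

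The rest of the eIF4 group did not pass. EIF4E, which binds the cap, changed by -0.17, and its inhibitors EIF4EBP1 and EIF4EBP2 by -0.16 and -0.08. EIF4H, which aids the helicase, changed by 0.25, and EIF4A3, a helicase of the exon junction complex, by -0.24. EIF4E2, EIF4E3 and EIF4G3 ranged from -0.14 to 0.09. No probe of EIF1, EIF1B, EIF2A, EIF5, EIF5A2, EIF5B or EIF6 passed, and their brightest probes ranged from -0.12 to 0.17. One EIF5 probe changed by -0.68 with a standard error of 0.31.

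Elongation factor eEF1A was the best sampled protein, with 11 probes for EEF1A2, the form that in mammals is found mainly in neurons and muscle, and 3 for EEF1A1, the common form. The brightest EEF1A2 probe read -0.27 to 0.22 (median -0.06) at week 1 and 0.06 to 0.92 (median 0.38) at week 7. Lean week 7 arrays lay close together, at 0.36 to 0.43, and fat ones at 0.06, 0.07 and 0.92. The rise was 0.45 (SE 0.11, 1.37-fold, adjusted p = 0.0099), or 0.38 (adjusted p = 0.0132) with loess per block. Of the 11 probes 10 lay above 0 and 3 passed, and with loess per block 3 passed as well, 2 of them the same. The 11 changes ran from -0.11 to 0.45, or from -0.05 to 0.39 per block. These probes can share a sequence and are not independent. No probe of EEF1A1 passed, at -0.07 to 0.33, and labelled cDNA of such close relatives can cross-hybridise.

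The eEF1B subunits EEF1B2 and EEF1D changed by -0.08 and 0.25 and did not pass, though EEF1D passed with loess per block, at 0.41 (adjusted p = 0.00738). EEF1E1, a small protein of the multi-synthetase complex, changed by 0.09. EEF2KMT, a methyltransferase that modifies eEF2, rose by 0.49 on its brightest probe (SE 0.11, adjusted p = 0.0035, 0.0592 per block), and its other probes changed by 0.04 each. EEF2 itself and its kinase EEF2K met the limit on arrays but had a value on only 1 usable lean week 7 array, and so were not tested. EEF2 read -0.34 to 0.28 in lean and -0.17 to 0.38 in fat birds at week 1, 0.89 on the lean week 7 array and 0.16 to 0.85 on the fat ones. EEF2K read -0.03 to 0.57 in lean and 0.10 to 0.23 in fat birds at week 1, 0.35 on the lean week 7 array and -0.75 to 0.11 on the fat ones. MARS and RARS2 had a value on 23 and 7 arrays and were not tested. The release factor ETF1, which reads stop codons, changed by -0.15 and -0.22 on its 2 probes, neither of which passed.

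Among the tRNA synthetases 1 of 31 probes rose and 2 fell. PARS2, the mitochondrial prolyl enzyme, fell by 0.40 (SE 0.12, adjusted p = 0.0271) on its 1 tested probe. Another PARS2 probe had a value on 21 arrays and was not tested. SARS1, the seryl enzyme, fell by 0.48 (adjusted p = 0.0115) on 1 of 3 probes and changed by 0.18 on its brightest. QARS, the glutaminyl enzyme, rose by 0.30 on one probe (adjusted p = 0.0369) and changed by -0.29 on the brighter one. None of the 3 passed with loess per block. WARS, the tryptophanyl enzyme, passed only there, and fell by 0.29 (adjusted p = 0.0349). By brightest probe, 9 of 12 cytosolic or dual enzymes and 3 of 5 mitochondrial ones lay below 0. AARS1 lay lowest of the cytosolic ones, at -0.39 (SE 0.17, adjusted p = 0.105), with its other probes at -0.29 and -0.25. GARS changed by -0.23 and HARS1 by -0.18, and DARS, KARS, LARS, RARS, TARS and YARS ranged from -0.09 to 0.22. CARS2, IARS2, MARS2 and NARS2 ranged from -0.06 to 0.21.

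Position on the slide moved with these calls. The 12 rows of grid blocks were split into 3 parts. In rows 1 to 3 lay 31 member probes, with 0 higher and 5 lower calls, where 2.43% of all probes passed as higher and 18.1% as lower. In rows 4 to 9 lay 46, with 2 higher and 0 lower, against 8.34% and 4.47%. In rows 10 to 12 lay 34, with 9 higher and 0 lower, against 16.4% and 1.50%. The median change of all tested probes ran from -0.25 in the first row to 0.12 in the last, and with loess per block it was near 0 in every row. All 5 lower calls lay in rows 1 to 3, and 9 of the 11 higher ones in rows 10 to 12.

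Single week 7 arrays decided some calls. With lean week 7 replicate 3 left out 9 member probes passed instead of 16 (8.11%, against 7.10% of all), and with fat week 7 replicate 4 left out also 9 (against 6.90% of all). Leaving out lean week 7 replicate 3 ended the calls of EIF3J, EIF3A, EIF3G, PARS2, QARS, SARS1 and 1 EEF1A2 probe. Leaving out fat week 7 replicate 4 ended those of EIF3A, EIF3G, EIF3L, PARS2, QARS, SARS1 and 2 EEF1A2 probes. EIF3G and QARS were each lost in 7 of the 30 fits without 1 array, the others being week 1 arrays and, for QARS, lean week 7 replicate 1. EIF2S1, EIF2B2, EEF2KMT, EIF4A2, EIF4ENIF1, EIF4G2 and the brightest EEF1A2 probe stayed called in all 30. For EIF2S1 the only alternative of 48 that ended the call was the header day as a block.

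**Figure D3:**
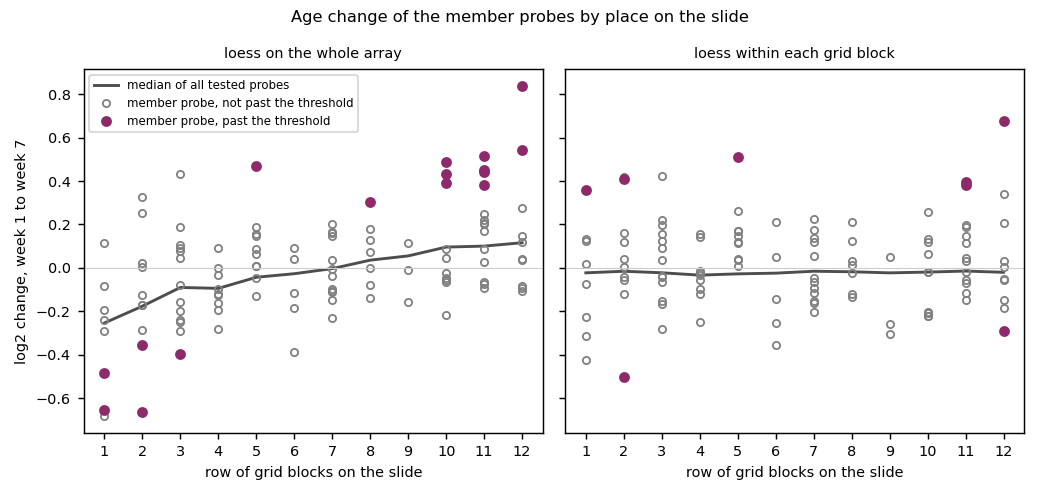
Log2 change from week 1 to week 7 of the 111 member probes (y axis) by row of grid blocks (x axis), with loess on the whole array at left and within each grid block at right. The line is the median of all tested probes, which runs from -0.25 to 0.12 at left and is flat at right, where 8 rather than 16 member probes pass.

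The day recorded in the file headers also moved with age. No day held arrays of both week 1 and week 7. With the header days of the fitted arrays as a block, no member passed for the change from week 1 to week 7, and no probe of all passed either. In that fit EIF2S1 changed by 0.83 (adjusted p = 0.215) and EIF2B2 by -0.79 (adjusted p = 0.196), while EIF3J changed by 0.26 and EIF3G by -0.12. Markers of other cells also changed with age: of 5 measured red blood cell genes 3 fell, and the list's mean ran from 0.17 to 0.59 at week 1 and from -0.78 to -0.14 at week 7. Of 14 measured genes of dividing cells 8 fell and 1 rose, with a mean of 0.22 to 0.41 at week 1 and -0.37 to -0.14 at week 7. Their part in the change of the translation genes was not tested.

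In genes with several probes, the signs and correlations of the probes do not depend on a threshold. Of 29 genes with 2 or more tested probes, 13 had 1 sign of change from week 1 to week 7, and 9 with loess per block. The number that random signs would give was not computed, so these counts are not read as agreement between probes. The median correlation of probes of 1 gene over the arrays was 0.04, or 0.15 per block, and exceeded 0.5 in 5 genes: EEF1B2 at 0.87, EEF1A2 at 0.69, ETF1 at 0.65, EIF3I at 0.61 and EIF3H at 0.58. Of the genes called in any comparison, 13 had 2 or more probes, and in 0 of them did every probe pass.

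**Figure D4:**
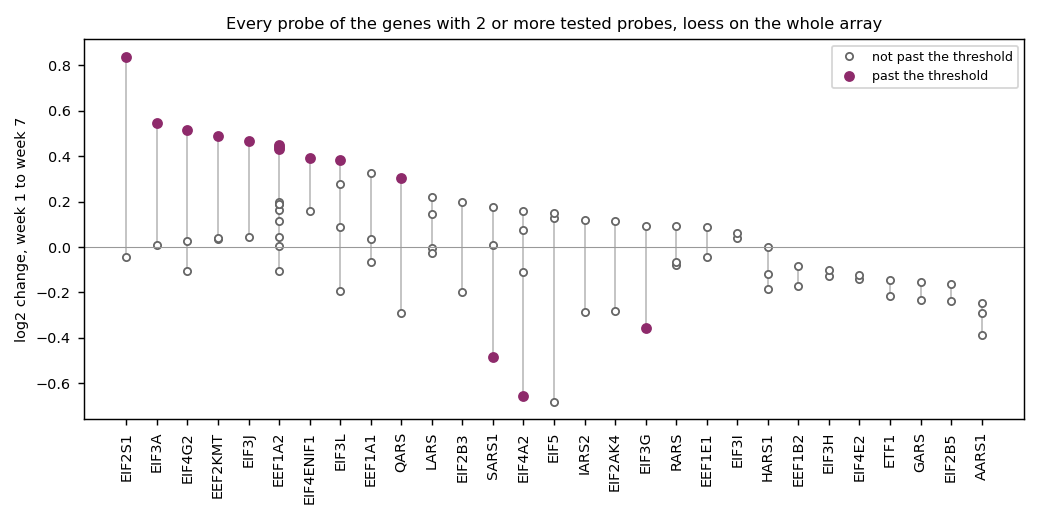
Log2 change from week 1 to week 7 (y axis, loess on the whole array) of every probe of the 29 genes with 2 or more tested probes, with filled points past the threshold. In each called gene at least 1 probe stayed below the threshold, and EEF1A2 had 3 of 11 past it.

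The steps between neighbouring ages and the test for any age difference found little among the members. No member passed from week 1 to 3 (75 of all probes, 0.511%), from week 3 to 5 (9 of all probes, 0.0613%) or from week 5 to 7 (0 of all probes, 0%). At an unadjusted p under 0.05, 4, 3 and 17 member probes passed (3.60%, 2.70% and 15.3%), against 6.64%, 2.8% and 17.8% of all. Any age difference was called for 4 member probes, of EIF2S1, EIF2B2, EEF2KMT and EIF4A2, against 781 of all probes (5.32%). With loess per block 3 members were called, against 4.48% of all. Omitting single arrays moved the 4 to 15 (fat week 7 replicate 1, where 9.42% of all passed), to 7 (lean week 7 replicates 1 or 4, 5.42% and 6.32% of all) or to 2 (lean week 1 replicate 3, fat week 1 replicates 1 or 2, fat week 7 replicate 4, 3.51% to 3.99% of all). Omitting fat week 7 replicate 1 also gave 1 call from week 5 to 7 (0.252% of all). No probe, member or other, passed the test that the line difference depends on age. In that test 6 member probes (5.41%) had an unadjusted p under 0.05, or 3 (2.70%) with loess per block. The share of all probes at that p is not given here, so these counts are not read further.

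Between the lines, as the mean of the 4 ages, 1 member probe passed, and it was lower in fat birds, against 103 of all probes (0.701%, or 0.62% with loess per block). It belonged to LARS, the cytosolic leucyl-tRNA synthetase, whose enzyme in yeast and mammals also reports leucine to the TOR growth pathway. This probe is not the brightest of the 4 LARS probes, and by brightest probe 0 of 59 genes passed. The probe read -0.08 to 0.72 (median 0.26) on 14 lean arrays and -0.21 to 0.16 (median 0.05) on 14 fat arrays. Group means were 0.15 against -0.02 at week 1, 0.26 against 0.04 at week 3, 0.37 against 0.02 at week 5 and 0.42 against 0.01 at week 7. Fat birds lay lower at every age, and at week 7 the lines did not overlap.

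The LARS difference was -0.29 (SE 0.06, 1.22-fold, adjusted p = 0.0333), or -0.28 (adjusted p = 0.0173) with loess per block. In 8 of 8 sets of arrays of 1 header day and 1 age, over 6 days, fat birds were lower, with differences of -0.45 to -0.06. These sets are parts of the same arrays that gave the call, most with 1 bird per line, so they are not separate support for it. The other LARS probes differed by -0.27 (adjusted p = 0.118), -0.06 and 0.06, and did not pass. The call was lost in 9 of 30 fits without 1 array, namely lean week 1 replicates 3 and 4, fat week 1 replicate 1, lean week 3 replicate 4, fat week 3 replicates 1, 2 and 3, lean week 5 replicate 3 and fat week 7 replicate 1. The count of line calls among the members rose to 2 when fat week 3 replicate 4 was omitted (0.497% of all) and to 3 when fat week 7 replicate 3 was (2.04% of all). The shared scan read -0.36 in the lean and -0.35 in the fat file. The call was lost with the lean file kept and held with only the fat file kept. In week 7 alone the LARS difference was -0.41 (adjusted p = 0.127).

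The rule for names also takes the members with the largest line difference on their brightest probe, none of which passed. AARS1, at 0.22, GARS, EIF4E3, MARS2 and HARS1 lay highest in fat birds, each at 0.15 or above. EEF1B2, at -0.33 (adjusted p = 0.112), QARS, EIF3M, EIF3E and EEF1D lay lowest, each at -0.16 or below. Other probes of the higher genes did not all follow. The other AARS1 probes had medians of -0.09 and 0.09 over fat arrays, against -0.15 and 0.15 over lean ones. The other GARS probe read 0.29 against 0.31, and the other HARS1 probes -0.15 and 0.09 against -0.10 and 0.27. Of 25 probes of cytosolic or dual synthetases 11 lay above 0, and by brightest probe 9 of 12 genes did.

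Within single ages no member probe passed between the lines, and 0 of all probes (0%) passed at weeks 1, 3 and 5. At week 7, 3 of all probes (0.0204%) passed. At an unadjusted p under 0.05, 2, 1, 3 and 34 member probes passed at weeks 1, 3, 5 and 7, and at weeks 1, 3 and 5 the shares of all probes were 3.66%, 3.14% and 3.84%. The 34 probes at week 7, 10 higher and 24 lower in fat birds, are 30.6% of the members, and 21.1% of all probes lay under that p. Among all probes the directions were 11.1% higher and 9.92% lower. With loess per block 26 member probes lay under that p, 9 higher and 17 lower (23.4%), against 16.8% of all, 8.46% higher and 8.35% lower. The median difference was -0.09 over the member probes and 0.02 over all tested probes. By brightest probe, 16 of 59 genes lay under that p (27.1%), 9 higher and 7 lower, with a median of 0.04. With loess per block these were 15 genes (25.4%), 7 higher and 8 lower, with a median of -0.00. The lean of the probe counts to lower values in fat birds was thus not seen over genes.

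Slide position moved with the week 7 line difference too. The median over all tested probes ran from -0.22 in the first row of blocks to 0.16 in the last. In rows 1 to 3, which hold the probes of EEF1B2, EEF1D and EIF3F and the EEF1A2 probe described next, 13 of 31 members lay lower and 0 higher at that p, against 20.3% and 1.51% of all. In rows 4 to 9 these were 9 lower and 5 higher of 46, against 8.07% and 11.2% of all. In rows 10 to 12 they were 2 lower and 5 higher of 34, against 3.57% and 20.3% of all. With loess per block the members in rows 1 to 3 were 8 lower and 2 higher, against 8.46% and 8.74% of all. With 3 arrays per line the week 7 values rest on few birds, and the count of member calls without 1 array ran from 0 to 15. It reached 15 (13.5%, against 8.16% of all) when the fat array numbered 3 was omitted and 13 (11.7%, against 6.52% of all) when the lean array numbered 1 was. It was 1 (against 1.18% of all) when the lean array numbered 4 was.

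Most EEF1A2, EEF1B2 and EEF1D probes read lower in fat birds at week 7, and none passed. Of 19 eEF1 probes 16 were below 0, with a median of -0.33, and 10 had an unadjusted p under 0.05, all lower. Of the 19 probes 11 belong to EEF1A2. By brightest probe 4 of the 5 eEF1 genes lay below 0, with a median of -0.05, and EEF1E1 differed by 0.03 and 0.16. With loess per block, 17 of the 19 probes were below 0, with a median of -0.27. By brightest probe all 5 genes then lay below 0, also with a median of -0.27. All 11 EEF1A2 probes were below 0, from -0.73 to -0.03, and from -0.47 to -0.13 with loess per block. The smallest adjusted p of any member was that of an EEF1A2 probe at -0.73 (adjusted p = 0.0662), which was -0.33 (adjusted p = 0.223) per block. That probe read 0.25, 0.48 and 0.43 in lean and -0.26, -0.00 and -0.76 in fat birds, with no overlap. Without lean week 7 replicate 3, 17 of the 19 eEF1 probes and all 11 EEF1A2 probes were below 0, and the eEF1 median was -0.28. Without fat week 7 replicate 1, 13 of 19 and 8 of 11 were, or 17 of 19 and 11 of 11 with loess per block. The earlier ages did not share this direction throughout. Of the 19 eEF1 probes, 13 lay higher in fat birds at week 1, 6 at week 3 and 13 at week 5. With loess per block these were 18, 6 and 14.

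EEF1B2, a subunit of the exchange factor that recharges eEF1A, showed the largest difference of all members at week 7. Its brightest probe read 0.52, 1.27 and 0.47 in lean and -0.14, 0.39 and -0.43 in fat birds. The lines did not overlap, though they did with loess per block. The difference was -0.81 (SE 0.21, 1.76-fold, adjusted p = 0.0791), and -0.66 (adjusted p = 0.123) with loess per block, so it did not pass. The other EEF1B2 probe differed by -0.54 and EEF1D, another subunit, by -0.70 (adjusted p = 0.0861), or -0.37 (adjusted p = 0.223) per block. Without lean week 7 replicate 3, which holds the highest values of both genes, the differences were -0.55 for EEF1B2 and -0.46 for EEF1D, or -0.42 and -0.15 per block.

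Subunits of eIF3 leaned the same way, with 15 of 18 probes below 0 and a median of -0.23, and 12 of 18 with a median of -0.18 per block. EIF3F differed by -0.53 (SE 0.14, adjusted p = 0.0791), EIF3E by -0.49 and EIF3M by -0.48, or -0.33, -0.40 and -0.46 per block. EIF3F read 0.39, 0.90 and 0.47 in lean and 0.20, 0.11 and -0.15 in fat birds, which do not overlap. Without lean week 7 replicate 3 the eIF3 median was -0.15, and -0.07 per block, and EIF3F differed by -0.38, or -0.13 per block.

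The synthetases went both ways at week 7. By brightest probe, 9 of 12 cytosolic or dual enzymes lay above 0 in fat birds, led by AARS1 at 0.70 (SE 0.25, adjusted p = 0.138), GARS at 0.54, HARS1 at 0.50 and WARS at 0.46. Over all 25 probes of these enzymes 12 lay above and 13 below 0. The other AARS1 probes differed by -0.20 and -0.35, the other GARS probe by -0.16, and the other HARS1 probes by -0.10 and -0.45. AARS1 read -0.45, -1.36 and -0.79 in lean and 0.28, -0.60 and -0.17 in fat birds on its brightest probe. The lines overlap there, and lean week 7 replicate 3 is the lowest array. Without it AARS1 differed by 0.46, GARS by 0.26, HARS1 by 0.23 and WARS by 0.25, which was 0.07 for WARS per block.

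**Figure D5:**
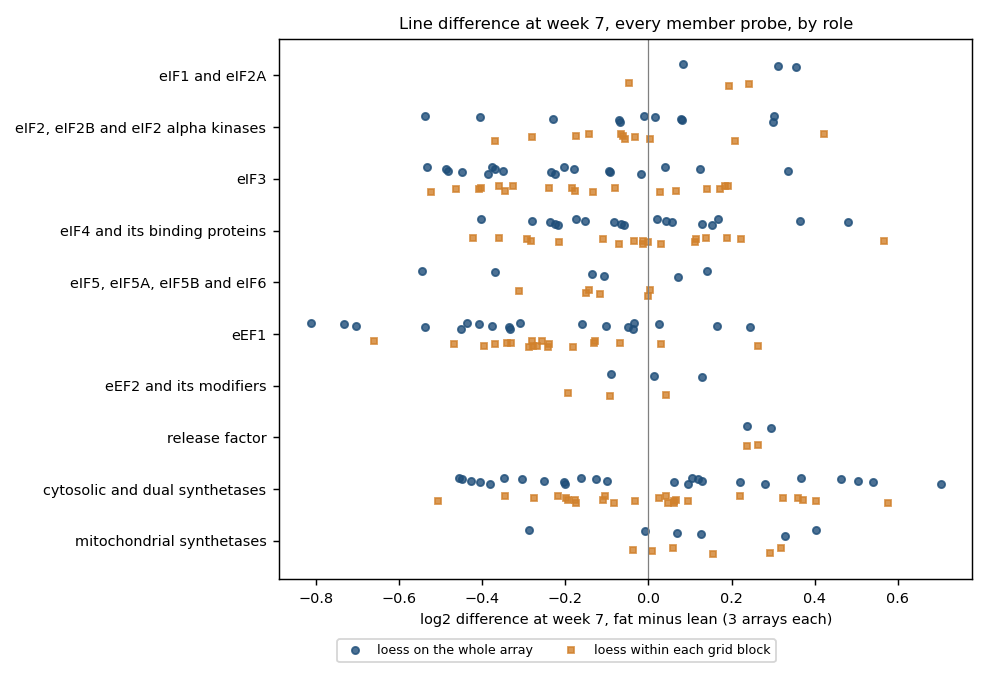
Log2 difference at week 7, fat minus lean, with 3 arrays per line (x axis), for every member probe by role. Circles show loess on the whole array and squares loess within each grid block. The eEF1 probes lie mostly below 0 (16 of 19 circles and 17 of 19 squares), and the synthetases lie on both sides.

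Lean and fat week 7 arrays did not overlap in 19 member probes (17.1%), against 12.5% of all tested probes. Week 1 and week 7 arrays did not overlap in 3 member probes (2.70%), against 2.33% of all. The 3 were the called probes of EIF2S1, EIF2B2 and EIF3L. With loess per block only that of EIF2S1 was left (0.901% of the members, against 2.21% of all), while the lines at week 7 again did not overlap in 19 (against 13.6% of all). Of 9 measured lymphocyte and macrophage genes, all 9 lay higher in fat birds as the mean of ages and none passed. Their mean ran from -0.29 to -0.10 in lean and from -0.06 to 0.16 in fat birds at week 7. With loess per block the lines overlapped, at -0.34 to -0.11 in lean and -0.18 to 0.14 in fat birds. The part of these genes in the line differences above was not tested.

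Of 12 measured genes among 26 listed symbols of other translation genes and the TOR pathway, none passed for age or line. Their median change was -0.01 from week 1 to week 7. The synthetase genes EPRS and FARSB, which the symbol pattern did not take, differed between the lines at week 7 by -0.20 (adjusted p = 0.551) and 0.37 (adjusted p = 0.202). MTOR, RPTOR, RPS6KB1, PABPC4, ABCE1 and HBS1L were listed but had no tested probe. The largest line differences at week 7 among them were those of the ribosomal protein gene RPS6, at -0.92 (adjusted p = 0.0598, -0.43 per block), PABPC1, a poly(A)-binding protein, at -0.52 (adjusted p = 0.118, -0.43 per block), and MCTS1, which acts in reinitiation, at 0.52 (adjusted p = 0.125, 0.38 per block). With loess on the whole array the difference of RPS6 exceeded that of every member in size. With loess per block it did not, since EEF1B2 then differed by -0.66. RPS6, PABPC1 and MCTS1 were chosen after their values were seen. Of 3 measured mitochondrial translation factors, the release factor MTRF1 rose by 0.32 (adjusted p = 0.0281) and the elongation factor GFM1 fell by 0.44 (adjusted p = 0.0223). Neither passed with loess per block.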

How the data were processed

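The authors deposited 1 scanner file per array, written by TIGR Spotfinder per the file headers, with spot intensity and background in both dyes and no normalization. Other spot measures in these deposited files are area, saturation and quality marks. A deposited table of log2 ratios, whose normalization is not given in the sources used here, served only as an alternative; its ratios correlated with those made here at 0.388 to 0.648 per array.

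The intensities, taken per spot area, were corrected with normexp (offset 50), after spots with a bad quality mark were left out, and log2 ratios of Cy3 over Cy5 were normalized by loess (span 0.3) on each array. One fat week 7 file already had its background off, and it was added back. A probe was tested with a value on at least 24 arrays of 32 and on 2 arrays of every group among the 30 fitted. limma 3.58.1 (R 4.3.3) fitted 1 mean per group, with 22 residual degrees of freedom for a complete probe, and two-sided moderated tests were adjusted by Benjamini-Hochberg over all tested probes. The number of arrays limits the precision. Where a gene is given 1 value, it is its brightest probe. Genes were named if called in any comparison, if among the 10 largest rises or falls from week 1 to week 7, or the 5 largest line differences in either direction; others are given by role. The platform table named 10601 probes, each with 1 symbol, 10455 of which matched a RefSeq gene. No build is stated for the probes, so no positions are given. Members, lists and tests were chosen with earlier results of these data known. The code was tested on simulated data.

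Marker lists for hormones, red blood cells, dividing cells, lymphocytes and macrophages were matched by exact symbol. Muscle and cartilage, fibroblast and glia lists were measured too: 1 of 5, 3 of 7 and 2 of 5 measured genes passed between week 1 and week 7, in either direction, and 0 between lines. Plots used matplotlib 3.10.9.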

Additional observations from a re-analysis of the deposited data

Results flagged for a closer look

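Within groups of 4 arrays, 5 of 96 sets of values of the called probes held an array far from the others, and chance flags about 1 set in 20. Each array named here belongs to week 3 or week 5. EIF3J read -0.32 in lean week 5 replicate 1, against 0.01 to 0.07 in the other 3 arrays. EIF4A2 read -0.14 in lean week 3 replicate 3, against 0.08 to 0.12. EIF3A read -0.12 in lean week 5 replicate 2, against 0.33 to 0.42. EIF3G read -0.0775 in lean week 5 replicate 4, against -0.15 to -0.14, and -0.0190 in fat week 5 replicate 1, against -0.21 to -0.18.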

How the results depend on the processing

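Across 48 alternatives, 47 of them planned and 30 leaving out 1 array, 0 called values of named probes reversed, 132 lost their call, 10 gained one and 2956 kept their side of the threshold. Leaving out 1 array moved the count of member calls between 9 and 22 for week 1 to week 7, 2 and 15 for any age difference, 0 and 3 for the mean line difference, 0 and 15 for the line at week 7 (15 without fat week 7 replicate 3, 13 without lean week 7 replicate 1) and 0 and 1 for week 5 to 7. The member count was 0 in every such fit for the other comparisons. Calls among all tested probes moved over these fits as well, so the swings were not particular to the members. They ran from 1013 to 3234 for week 1 to week 7 and from 515 to 1383 for any age difference. For the mean line difference they ran from 52 to 300. For the line at week 7 they ran from 0 to 1198, and for week 5 to 7 from 0 to 37.

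For week 1 to week 7 the main fit gave 16 calls, and 16% of all probes passed. With both arrays of the shared scan kept there were 8 (8.96% of all), and 8 with loess per grid block (8.24%). There were 9 with 1 probe per gene (17.3%), 5 with only the groups compared (4.79%) and 9 with array weights (6.36%). There were 0 with header day as a block (0%) and 5 in the authors' table (5.53%), 3 of them shared. Loess per grid block without fat week 7 replicate 4, chosen after seeing the data, gave 4 (5.17%), and 2 for any age difference (3.37%). For any age difference, against 4 (5.32%), there were 2 with both shared files (3.95%), 2 with the lean one (3.97%) and 7 without background subtraction (4.98%). There were 2 with every quality mark kept (2.98%), 0 with header day (0.0556%) and 1 in the authors' table (3.64%). For the mean line difference, against 1 (0.701%), there were 0 with both shared files (0.251%), the lean one (0.245%) or every quality mark (0.225%). There were also 0 with a value on all arrays (1.0211%), 1 probe per gene (0.44%) or the authors' table (0.347%). With shares of all probes this small, a count of 0 rather than 1 is not read further. For the line at week 7, against 0 (0.0204%), there was 1 with the fat shared file kept (0.646%). For week 1 to 3, against 0 (0.511%), there was 1 with scale normalization (0.919%) and 2 with array weights (1.23%). The causes were not tested.

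Replicate numbers did not meet the limit set for pairing, a correlation over 0.1 in every pair: of 99 same-number pairs 63 had deviations correlated over it (range -0.20 to 0.41, median 0.14, against -0.04 for other numbers), and 20 of 30 arrays lay closest to their own number. With a replicate block, 2 members passed for the mean line difference (1.80% against 2.02% of all). For the line at week 7, 11 passed (4 higher and 7 lower, 9.91% against 5.06% of all), and 1 for week 1 to 3 (0.901% against 0.660% of all). Limits are 3 usable week 7 arrays per line, dim probes and a Cy3 signal that was low over background on some arrays.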
